A study of Homo sapiens with 9 samples.

Results

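The small subunit of the mitochondrial ribosome was followed through the mRNAs of its nuclear-encoded proteins. A row of the count table was taken as a member when its symbol was MRPS, a number and at most 1 letter, with pseudogene symbols dropped, and DAP3, PTCD3, CHCHD1 and AURKAIP1 were added. The rule found 33 of the 28307 rows, and all 33 passed the filter on low counts that left 15619 genes for testing. The rule reads symbols and no expression value, but the members were chosen with earlier results of these data known. The 33 genes lie on 18 chromosomes.

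RNA was sequenced from SW620, an established human line derived from a lymph node metastasis of a colon adenocarcinoma, with the genotype given as WT. One group received 120 µM streptomycin (SM) for 48 h, another 120 µM dihydrostreptomycin (DSM) for 48 h, and the third received neither and is called untreated. All 3 groups were grown as suspended cells in low-attachment plates, in a DMEM/F12-based medium with insulin and growth factors. Each group held 3 libraries that the submitters call biological replicates. They come from 1 cell line, and the labels number them 1 to 3 without saying what a number shares. DSM is SM with the aldehyde of its streptose sugar reduced to an alcohol. The design text calls 120 µM an EC50 without naming the response.

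Streptomycin binds the decoding site of the bacterial small ribosomal subunit, where the protein S12 touches the ribosomal RNA, and changes in S12 are a classical source of streptomycin resistance in bacteria. Mitochondria keep a ribosome of bacterial descent, which translates the few proteins encoded in mitochondrial DNA. Its small subunit has a 12S rRNA made in the organelle and proteins that are made in the cytosol from nuclear mRNAs and imported, some with bacterial homologs and some found only in mitochondria. MRPS12 is the homolog of S12. The mRNA levels measured here do not show protein levels, assembly or translation, and RNAs from mitochondrial DNA were not analysed here.

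Motifs in the members' start regions were examined first. RefSeq promoter entries of GRCh38.p14, which run from 250 bases before to 50 bases after a gene's start, were matched for 32 of the 33 members. The letters ATGGCGGC, read on both strands as a core of the YY1 motif, occurred in 9 of the 32 (28.1%), against 5.8% of the 11891 tested genes with an entry and 3.2% of all 27305 entries. YY1 is a zinc-finger transcription factor. All 9 matches lay downstream of the start, on the gene's own strand, in the 50 transcribed bases, where 3.8% of the tested genes' entries hold the motif. In 8 of the 9 the first 3 letters of the motif are an annotated start codon of the member, MRPS15 being the exception, so the letters also spell the beginning of the coding sequence. The 9 sites are shown because this motif, of the 4 searched, was found in the most members, though most member entries lack it. They are given in the members' sense strand with the motif in capitals.

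MRPS15: cctgggccagcATGGCGGCgcccatgtaac
MRPS14: tagcggacaacATGGCGGCcttcatgctgg
MRPS9: ccacagctaacATGGCGGCgccctgtgtgt
MRPS30: cgcgggcaaagATGGCGGCggccaggtgtt
MRPS18B: cgtacgtcaagATGGCGGCgtctgtattaa
MRPS10: ggaccggcaagATGGCGGCgcggacagcgt
MRPS18A: ggtttttgaagATGGCGGCcctcaaggctc
MRPS24: cttggcccaagATGGCGGCctccgtgtgca
MRPS35: tcctcgcagccATGGCGGCcgccgcgctcc

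On GRCh38.p14 these sites are at chr1:36464339-36464368 (minus strand) for MRPS15, chr1:175023390-175023419 (minus) for MRPS14, chr2:105038082-105038111 (plus) for MRPS9 and chr5:44808952-44808981 (plus) for MRPS30. The sites of MRPS18B, MRPS10 and MRPS18A are at chr6:30617855-30617884 (plus), chr6:42217831-42217860 (minus) and chr6:43687761-43687790 (minus). Those of MRPS24 and MRPS35 are at chr7:43869477-43869506 (minus) and chr12:27710833-27710862 (plus). The same letters were in 11 of 43 entries (25.6%) of the large mitochondrial subunit and in 3 of 25 (12%) of the cytosolic small subunit. The entry of MRPS12 does not hold them.

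The NRF1 motif, that of a regulator of nuclear genes for mitochondrial proteins, was in 2 of 32 member entries (6.2%), those of MRPS9 and MRPS33, against 10.9% of tested genes. The ETS core CCGGAAGT was in 3 of 32 (9.4%) against 8.1%. The core of the antioxidant response element was in 1 of 32 (3.1%), that of MRPS21, against 3.0%. Both strands were read, and matches to different motifs shared bases in 0 members. The median GC content of the 250 bases before the start was 60.4% in members, with a range of 45.2% to 84.8%, against 64.4% in tested genes. A match describes letters and is not a measured binding site.

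Library totals ranged from 39315662 counts in SM replicate 2 to 65562227 in untreated replicate 1, and the members took 0.261% to 0.283% of them. The labelled cell type was checked against its markers. EPCAM lay between 414.5 and 462.5 CPM (read counts scaled to a common library size), and CDH1, KRT8, KRT18, KRT19 and VIL1 at 193.8 CPM or more, in all 9 libraries, whereas KRT20 and LGALS4 lay below 1 CPM and CDX1 had 1 count in all. CDX2 lay between 10 and 15.73 CPM. In every group replicate 1 was set apart from the other libraries, and 6360 genes (40.7%) differed by replicate number at a Benjamini-Hochberg adjusted p under 0.05 in edgeR's quasi-likelihood test. Comparisons are therefore given both without the replicate number and with it as a block where the call changes.

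Every member was expressed. Per kilobase of annotated exon, the highest level was that of MRPS34, a mitochondria-specific protein that is needed for small subunit stability, at 214 CPM per kb in SM cells, 205 in DSM cells and 205 ± 7.67 in untreated cells (SD, n = 3). MRPS26 followed at 119 CPM per kb in SM, 110 in DSM and 115 ± 7.21 in untreated cells, then MRPS15 at 108, 105 and 110 ± 0.889 in the same order of groups. MRPS2 stood at 109 ± 3.04 CPM per kb in untreated cells, which is within the spread of MRPS15. The lowest levels were those of MRPS24, MRPS33 and MRPS14. MRPS24, the homolog of bacterial S3 at the mRNA entry, had 8.65 CPM per kb in SM, 7.59 in DSM and 7.63 ± 0.977 in untreated cells, which did not stand apart from MRPS33 at 7.98 ± 0.55 in untreated cells. MRPS14 had 11.1 ± 0.574 CPM per kb there. MRPS12 ranked 12 of 33, with 45.8 CPM per kb in SM, 44.2 in DSM and 45.8 ± 2.62 in untreated cells. The first 6 and last 3 ranks were the same when the longest coding transcript replaced the union of exons, and MRPS12 then ranked 9. For MRPS24, 77.0% of the exon bases are shared on the same strand with the readthrough gene URGCP-MRPS24, so its level is uncertain.

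**Figure D1:**
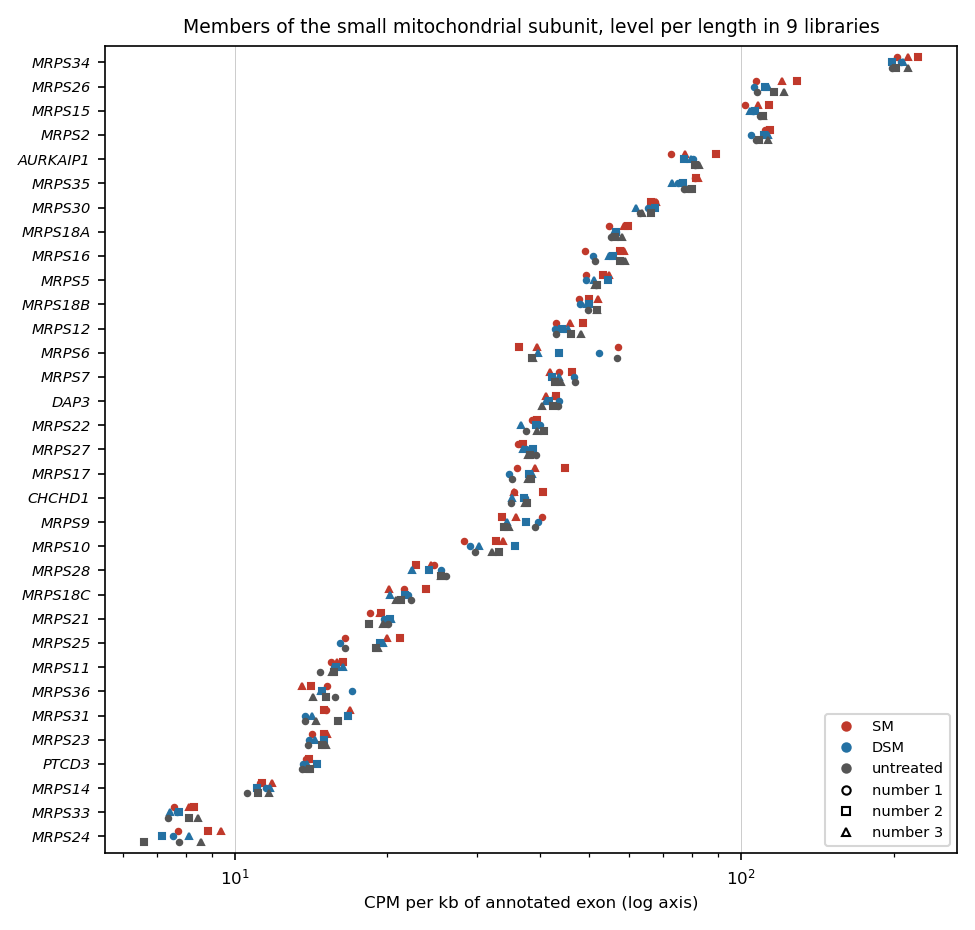
Level per length of the 33 members in each of the 9 libraries, in CPM per kilobase of annotated exon on a log axis, ordered by the untreated mean. Colours mark the groups and shapes the replicate numbers. MRPS34 leads near 205 in untreated cells and MRPS24 is last near 7.63, and within each member the libraries of the 3 groups lie close together, MRPS6 being the widest.

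The first question was whether SM changed these mRNAs relative to untreated cells. None of the 33 members was called, with or without the replicate block. The summed level of the members was 2644, 2825 and 2753 CPM in the SM libraries, against 2665, 2722 and 2744 CPM in the untreated libraries. The groups overlap in that sum, with means of 2741 ± 91.1 CPM in SM cells and 2710 ± 40.8 CPM in untreated cells (SD, n = 3 each). In bulk RNA, fewer cells that express a gene and less of its RNA per cell cannot be told apart.

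By edgeR 0 members and 3 of all 15619 genes (0.0192%) were called without the block, and 0 members lay under 0.05 before adjustment, against 365 genes (2.34%). DESeq2 also called 0 members. The blocked fit called 428 genes (2.74%), of which 187 (1.20%) were higher and 241 (1.54%) lower, and still 0 members. Before adjustment, 1 of the 33 members and 2317 of the 15619 genes lay under 0.05 in that fit. The median log2 fold change of the 33 was 0.015, with 21 positive and 12 negative, beside -0.00073 over all tested genes. Among the 16 bacterial homologs the median was 0.012, among the 14 mitochondria-specific proteins 0.011.

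MRPS12 (Entrez Gene 6183, plus strand of chromosome 19, positions 38930548 to 38933162 of GRCh38 in GENCODE v29) had 70.0, 79.1 and 74.5 CPM in SM replicates 1, 2 and 3, against 70.0, 74.9 and 78.5 CPM in untreated replicates 1, 2 and 3. Replicate 1 was the lowest in both groups, and the groups cover nearly the same range. SM cells averaged 74.5 ± 4.55 CPM and untreated cells 74.5 ± 4.25 CPM (SD, n = 3 each). The log2 fold change was 0.00051 (SE 0.06, 95% interval -0.13 to 0.13, edgeR adjusted p = 0.9999). With the block the interval was -0.078 to 0.077.

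The members with the smallest p in this comparison were MRPS27, MRPS28 and MRPS24. MRPS27, a pentatricopeptide repeat protein of the mitochondrial small subunit, had 128.6, 131.6 and 131.4 CPM in SM cells, against 139.1, 135.4 and 134.6 CPM in untreated cells. Its SM libraries all lay below the untreated ones, with a log2 fold change of -0.063 (SE 0.039, edgeR adjusted p = 0.9999). MRPS28, placed at the position of bacterial S1, had 27.7, 25.5 and 27.3 CPM in SM cells and 29.3, 28.6 and 28.6 CPM in untreated cells, a log2 fold change of -0.10 (SE 0.064, edgeR adjusted p = 0.9999). MRPS24 had 6.07, 6.96 and 7.40 CPM in SM cells, against 6.10, 5.20 and 6.73 CPM in untreated cells. Its groups overlap, and its log2 fold change of 0.18 (SE 0.12) was the most positive of the 33.

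Members whose SM and untreated libraries did not overlap numbered 1 higher, MRPS35, and 2 lower, MRPS27 and MRPS28. Over all genes such separation was seen for 3.28% as higher and 3.46% as lower. In 7 members all 3 same-numbered pairs were higher with SM and in 4 all were lower, beside 17.4% and 18.9% of all genes. MRPS17, the S17 homolog, was the 1 member with an unadjusted p under 0.05 in the blocked fit. It had 66.6, 82.8 and 72.3 CPM in SM cells and 65.1, 70.8 and 69.9 CPM in untreated cells, with a blocked log2 fold change of 0.10 (SE 0.041, edgeR adjusted p = 0.229). SM replicate 2, which had the smallest library total, was the highest of these 6 values.

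The second question was the same for DSM. Again 0 members and 0 of all genes (0%) were called by edgeR without the block, where 0 members and 103 genes (0.659%) lay under 0.05 before adjustment. The blocked fit also called 0 members and 0 genes, with 1 member and 650 genes at an unadjusted p under 0.05, and DESeq2 called 0 members and 0 genes. The median log2 fold change of the 33 was -0.0042, with 14 positive and 19 negative, beside -0.00044 over all tested genes. It was -0.00048 among bacterial homologs and -0.019 among mitochondria-specific proteins. The summed level was 2658, 2715 and 2664 CPM with DSM, and the untreated libraries are the same ones as above.

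MRPS12 had 69.6, 71.9 and 73.9 CPM in DSM replicates 1, 2 and 3, all below the same-numbered untreated libraries given above but overlapping them as a group. DSM cells averaged 71.8 ± 2.14 CPM, against 74.5 ± 4.25 CPM in untreated cells (SD, n = 3 each). The log2 fold change was -0.053 (SE 0.06, 95% interval -0.19 to 0.081, edgeR adjusted p = 1).

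MRPS35, a mitochondria-specific protein of the small subunit, had 141.3, 144.7 and 137.5 CPM in DSM cells, against 145.7, 151.1 and 147.9 CPM in untreated cells. Its DSM libraries all lay below the untreated ones, with a log2 fold change of -0.070 (SE 0.039, edgeR adjusted p = 1). MRPS28 and MRPS15 had the next smallest p, with log2 fold changes of -0.099 (SE 0.064) and -0.062 (SE 0.047). MRPS15, the homolog of an S15 protein that binds the rRNA early in bacterial assembly, had 106.3, 106.9 and 104.6 CPM in DSM cells and 109.5, 111.1 and 111.1 CPM in untreated cells.

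Libraries of DSM and untreated cells did not overlap in 1 member as higher, MRPS11, beside 2.20% of all genes, and in 3 as lower, MRPS15, MRPS35 and AURKAIP1, beside 2.22%. AURKAIP1, a small mitochondria-specific protein of the small subunit, had 113.4, 108.8 and 112.1 CPM in DSM cells and 114.3, 114.4 and 116.4 CPM in untreated cells. In 2 members all 3 pairs were higher with DSM and in 9 all were lower, beside 14.3% and 15.1% of all genes.

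The third question set the 2 compounds, which differ by the aldehyde of the streptose, against each other at the same dose and time, as 1 pair with p adjusted over all tested genes. Without the block 0 members and 0 genes (0%) were called by edgeR, with 1 member and 396 genes (2.54%) at an unadjusted p under 0.05, and DESeq2 called 0 members and 11 genes. The blocked fit called 606 genes (3.88%), 270 higher (1.73%) and 336 lower (2.15%), and 1 of the 33 members was among them, MRPS35, which was higher with SM. The median log2 fold change of the 33 was 0.024, with 23 positive and 10 negative, beside 0.00026 over all genes. It was 0.011 among bacterial homologs and 0.028 among mitochondria-specific proteins, 12 of whose 14 values were positive. Without the block, 23 of 32 genes of the cytosolic small subunit were also positive (median 0.032). So were 31 of 50 genes of the large mitochondrial subunit (median 0.016).

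MRPS35 had 153.1, 153.9 and 154.9 CPM in SM replicates 1, 2 and 3, against 141.3, 144.7 and 137.5 CPM in DSM replicates 1, 2 and 3. All SM libraries lay above all DSM libraries, and the untreated libraries, at 145.7 to 151.1 CPM, lay between them without overlap. The share of all genes in this order was not computed. The means were 154 ± 0.855 CPM with SM and 141 ± 3.62 CPM with DSM, beside 148 ± 2.71 CPM in untreated cells (SD, n = 3 each). The log2 fold change was 0.125 without the block (SE 0.039, edgeR adjusted p = 0.9998) and 0.126 with it (SE 0.032, 95% interval 0.060 to 0.19, edgeR adjusted p = 0.0232), a ratio of 1.09. The blocked call was lost without SM replicate 1 (adjusted p = 0.0507), SM replicate 3 (0.113), DSM replicate 1 (0.0582), DSM replicate 2 (0.0667) or DSM replicate 3 (0.162), and it held without SM replicate 2. Without the 3 libraries numbered 1 the adjusted p was 0.102 at a log2 fold change of 0.13. In the same blocked comparison 3 of the 9 tested colon epithelial markers were lower with SM, CDH1 by a log2 fold change of -0.27 (edgeR adjusted p = 0.0396), KRT19 by -0.14 (0.0158) and VIL1 by -0.14 (0.00739), and so was 1 of the 3 tested fibroblast markers, LUM, by -0.46 (0.00877). The part of these marker differences in that of MRPS35 was not tested.

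MRPS12 had a log2 fold change of 0.053 between SM and DSM (SE 0.06, 95% interval -0.081 to 0.19, edgeR adjusted p = 0.9998). It was higher with SM in all 3 same-numbered pairs, while the groups overlapped. A difference of the size of either bound is compatible with these libraries, so the compounds were not shown to leave MRPS12 at the same level.

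After MRPS35, the blocked fit gave unadjusted p under 0.05 for MRPS26, MRPS17 and MRPS36, none of which passed over all genes. In that fit 4 of the 33 members and 2535 of the 15619 tested genes lay under 0.05 before adjustment. MRPS26, a mitochondria-specific protein, had 120.3, 145.0 and 135.9 CPM in SM cells, against 119.3, 125.4 and 127.0 CPM in DSM cells. Replicate 1 was the lowest in both groups, and the groups overlap through SM replicate 1. Its blocked log2 fold change was 0.11 (SE 0.037, edgeR adjusted p = 0.119), and it was called in place of MRPS35 when SM replicate 1 was left out. MRPS17 had 64.1, 70.1 and 71.4 CPM in DSM cells, beside the SM values above, and a blocked log2 fold change of 0.10 (SE 0.041, edgeR adjusted p = 0.196).

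MRPS36 had 23.2, 21.6 and 20.7 CPM in SM cells, against 26.0, 22.7 and 22.6 CPM in DSM cells, and each SM library lay below the DSM library with its number. Its blocked log2 fold change was -0.12 (SE 0.051, edgeR adjusted p = 0.224). SM and DSM libraries did not overlap in 1 member as higher, MRPS35, beside 3.41% of all genes, and in 1 as lower, beside 3.16%. The member that was lower was MRPS21, the S21 homolog, at 30.4, 31.8 and 31.7 CPM in SM cells and 32.3, 33.2 and 33.3 CPM in DSM cells. In 6 members all 3 pairs were higher with SM and in 2 all were lower, beside 16.3% and 16.2% of all genes.

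**Figure D2:**
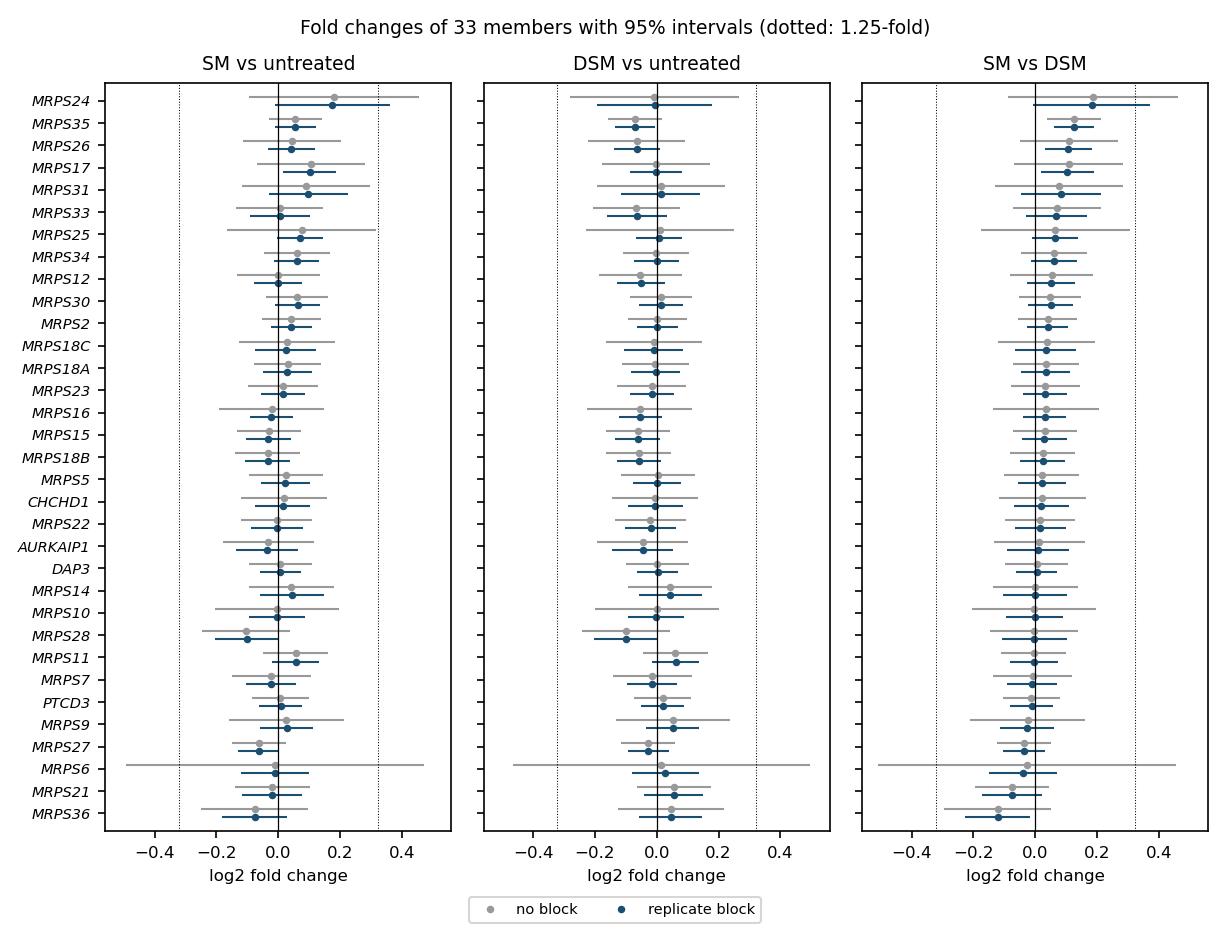
Log2 fold changes of the 33 members in 3 comparisons, with 95% intervals from edgeR without the replicate block (grey) and with it (blue), ordered by SM against DSM. Dotted lines mark 1.25-fold, and most intervals lie between them. The blocked interval of MRPS35 in SM against DSM is 0.060 to 0.19, and that member is the 1 called. Blocked intervals of MRPS26, MRPS17 and MRPS36 in that comparison also clear 0. So do those of MRPS17 in SM and of MRPS35 in DSM against untreated cells.

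How far these data limit a change was read from the intervals. Against untreated cells, the 95% interval of the SM fold change lay within 1.25-fold in 31 of the 33 members without the block and in 32 with it, beside 51.2% and 65.1% of all tested genes. For DSM the counts were 32 and 33, beside 54.9% and 68.7%. For SM against DSM they were 31 and 32, beside 50.8% and 64.4%. The members are moderately abundant mRNAs, and the part of abundance in their intervals was not tested. Their coefficient of variation over the libraries of a group had a median of 4.10%, against 5.97% for the 9062 tested genes in the same range of mean CPM. The member with the widest interval without the block was MRPS6, at -0.49 to 0.47 on the log2 scale for SM against untreated cells. With the block the upper bound that reached farthest was that of MRPS24, at 0.36 for SM against untreated cells and 0.37 for SM against DSM.

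Members that the rule takes in by name but that structures place elsewhere were read separately. MRPS18A and MRPS30 sit on the large subunit, and MRPS36, listed in RefSeq as KGD4, is a component of the 2-oxoglutarate dehydrogenase complex. MRPS30 had 113.2, 111.3 and 113.8 CPM in SM cells, 109.9, 113.2 and 104.1 CPM in DSM cells and 106.0, 111.5 and 106.7 CPM in untreated cells. Its log2 fold change was 0.062 for SM (SE 0.045) and 0.013 for DSM (SE 0.045) against untreated cells, with overlapping groups. MRPS36 had 24.1, 23.2 and 21.8 CPM in untreated cells, and log2 fold changes of -0.076 for SM (SE 0.078) and 0.046 for DSM (SE 0.078) against them.

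The 3 paralogs of bacterial S18 were each compared across the groups. MRPS18C, which takes the S18 position on the small subunit, had 35.5, 39.2 and 33.1 CPM in SM cells, 36.2, 35.6 and 33.2 CPM in DSM cells and 36.6, 34.9 and 34.1 CPM in untreated cells. MRPS18B, another small subunit protein, had 73.3, 76.7 and 79.8 CPM with SM, 73.6, 76.5 and 76.0 CPM with DSM and 76.3, 79.5 and 79.6 CPM in untreated cells. MRPS18A had 58.2, 63.5 and 62.3 CPM with SM, 60.04, 60.03 and 59.6 CPM with DSM and 58.7, 59.9 and 61.6 CPM in untreated cells. The groups of each overlap in every comparison, with log2 fold changes against untreated cells of 0.028, -0.034 and 0.031 for SM and of -0.0094, -0.058 and -0.0042 for DSM in the order C, B, A. Exon bases of MRPS18C are shared to 78.9% with ABRAXAS1 and those of MRPS18A to 56.9% with RSPH9, both on the other strand. Without the strand setting of the counting, these levels are uncertain.

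MRPS5, the homolog of a bacterial protein in which changes alter decoding accuracy, had 81.6, 87.9 and 90.6 CPM in SM cells, 81.6, 90.3 and 84.6 CPM in DSM cells and 85.3, 85.6 and 84.8 CPM in untreated cells. The groups overlap. Its log2 fold change was 0.024 for SM (SE 0.054) and 0.0036 for DSM (SE 0.054) against untreated cells, and 0.021 for SM against DSM (SE 0.054).

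**Figure D3:**
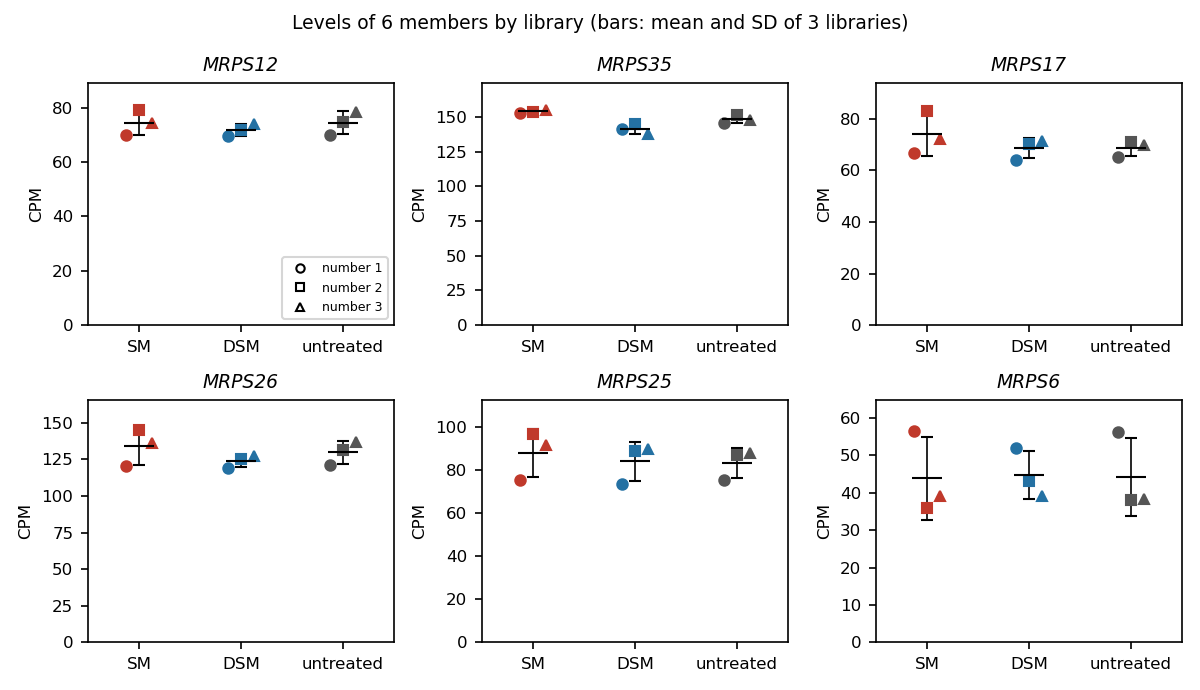
CPM of MRPS12, MRPS35, MRPS17, MRPS26, MRPS25 and MRPS6 in each library, with bars for the mean and SD of the 3 libraries of a group and shapes for the replicate number. MRPS35 separates by group, with 153.1 to 154.9 CPM in SM and 137.5 to 144.7 CPM in DSM. MRPS25 and MRPS6 separate by number, with replicate 1 low in MRPS25 and high in MRPS6 in every group.

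More members differed by replicate number than between groups. With group in the model, 9 of the 33 members (27.3%) differed by replicate number in edgeR, beside 40.7% of all genes. Replicate 1 was higher in MRPS6, MRPS9 and MRPS36, and lower in MRPS25, MRPS16, MRPS10, MRPS26, MRPS17 and MRPS12. Replicate 1 was the lowest library in all 3 groups for 11 members and the highest for 4, beside 21.7% and 22.7% of all genes. No member was called when numbers 2 and 3 alone were compared, where 560 genes were.

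MRPS6, the S6 homolog, had the smallest p. It had 56.6, 35.9 and 39.2 CPM in SM replicates 1, 2 and 3, 51.9, 43.1 and 39.2 CPM in DSM and 56.2, 38.1 and 38.4 CPM in untreated cells. Replicate 1 was the highest in every group. The means by number were 54.9, 39.1 and 38.9 CPM (edgeR adjusted p = 2.47e-08).

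MRPS25, a mitochondria-specific protein, moved the other way. It had 75.6, 97.1 and 91.5 CPM in SM replicates 1, 2 and 3, 73.8, 88.8 and 89.8 CPM in DSM and 75.5, 87.1 and 88.0 CPM in untreated cells. Replicate 1 was the lowest in every group, and the means by number were 75.0, 91.0 and 89.8 CPM (edgeR adjusted p = 1.54e-06).

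MRPS16, the S16 homolog, had means by number of 132.8, 149.9 and 151.3 CPM (edgeR adjusted p = 0.0001), MRPS10, the S10 homolog, 61.3, 71.5 and 67.7 CPM (adjusted p = 0.000907), and MRPS9, the S9 homolog, 59.6, 52.6 and 52.5 CPM (adjusted p = 0.00103). For MRPS12 they were 69.9, 75.3 and 75.7 CPM (adjusted p = 0.0273), a spread wider than any difference between its group means. MRPS26 had 120.1, 133.8 and 133.3 CPM (edgeR adjusted p = 0.00196) and MRPS17 65.3, 74.6 and 71.2 CPM (adjusted p = 0.00249). MRPS36 had 24.45, 22.48 and 21.71 CPM (adjusted p = 0.0206). In the blocked fit of SM against DSM, MRPS26, MRPS17 and MRPS36 also had an unadjusted p under 0.05. So did MRPS35, which did not differ by replicate number (edgeR adjusted p = 0.62).

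Cell type markers moved with the replicate number as well. The summed level of the 10 colon epithelial markers was 13540, 14550 and 14870 CPM in replicate 1 of SM, DSM and untreated cells, and 11300 to 12030 CPM in the other 6 libraries. By number 8 of the 9 tested markers differed, 7 with replicate 1 higher and 1, CDX2, with replicate 1 lower. The means of CDX2 by number were 10.55, 12.13 and 14.27 CPM (edgeR adjusted p = 9.38e-05). The 6 fibroblast markers summed to 12.5 to 24.8 CPM in SM, 16.3 to 25.8 CPM in DSM and 15.6 to 27.0 CPM in untreated cells, with replicate 1 highest in each group, and DCN and COL3A1 had 0 counts in all 9 libraries. The 5 leukocyte markers summed to 5.25 to 9.14 CPM in SM, 6.36 to 9.11 CPM in DSM and 4.96 to 8.76 CPM in untreated cells, nearly all of it LYZ, with PTPRC and CD3E at a few counts. The 4 endothelial markers summed to 1.84 to 4.02, 2.36 to 4.03 and 2.44 to 4.42 CPM in the same order of groups. Between groups, no marker was called without the block. In the blocked fit of SM against untreated cells all 9 tested colon epithelial markers had negative log2 fold changes, and KRT19 (-0.18, edgeR adjusted p = 0.00173) and VIL1 (-0.14, adjusted p = 0.0119) were called, as was the fibroblast marker LUM (-0.41, adjusted p = 0.0271). The markers called as lower with SM than with DSM are given above beside MRPS35. For DSM against untreated cells 0 markers were called in either fit. The part of the markers in the members' values, by number or by group, was not tested.

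**Figure D4:**
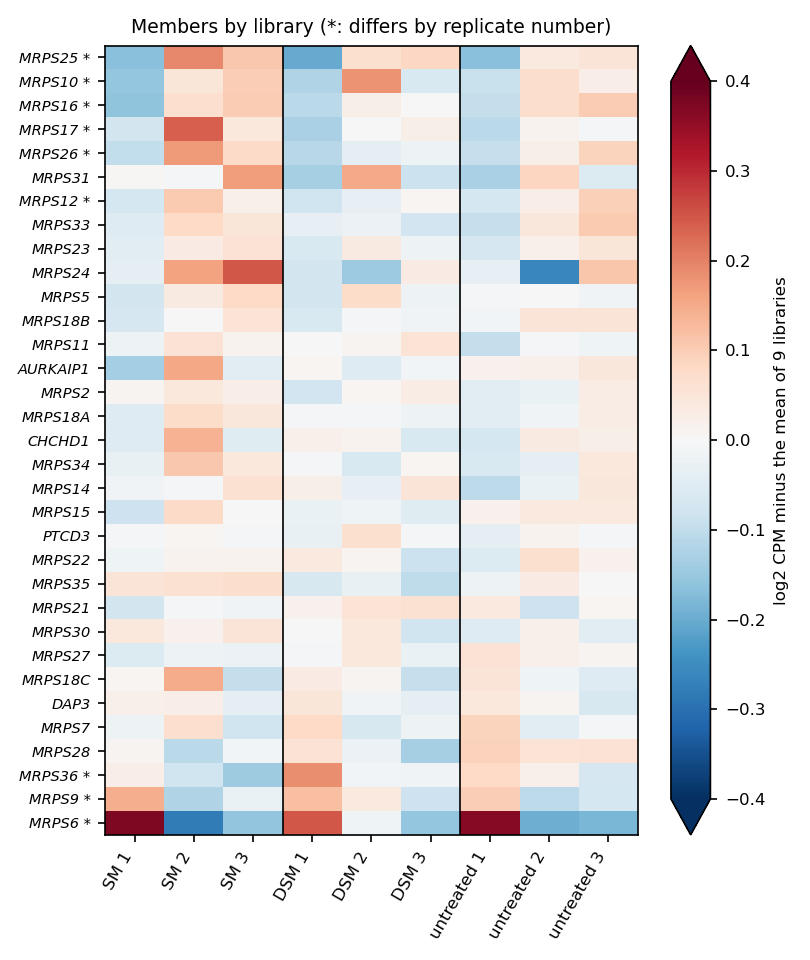
Log2 CPM of the 33 members in the 9 libraries, each minus the member's mean, ordered by replicate 1 relative to replicates 2 and 3; a star marks the 9 members that differed by replicate number. The columns of replicate 1 show MRPS25 low and MRPS6 high in all 3 groups, while MRPS35 lies above its mean in all 3 SM columns and below it in all 3 DSM columns.

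Neighbouring genes were read where the annotation could join them to a member. MRPS6 shares 176 exon bases, 17.8% of its own, with SLC5A3 on the same strand of chromosome 21. SLC5A3, the myo-inositol transporter, had 174.5, 82.7 and 86.7 CPM in SM replicates 1, 2 and 3, 155.2, 99.5 and 91.8 CPM in DSM and 161.9, 92.3 and 87.3 CPM in untreated cells. Replicate 1 was the highest in every group, as in MRPS6, and SLC5A3 also differed by number (edgeR adjusted p = 1.34e-08). Whether reads of one were counted for the other was not tested, so the pattern of MRPS6 by number is uncertain. Of the 33 members, 11 share exon bases with another gene of the table.

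**Figure D5:**
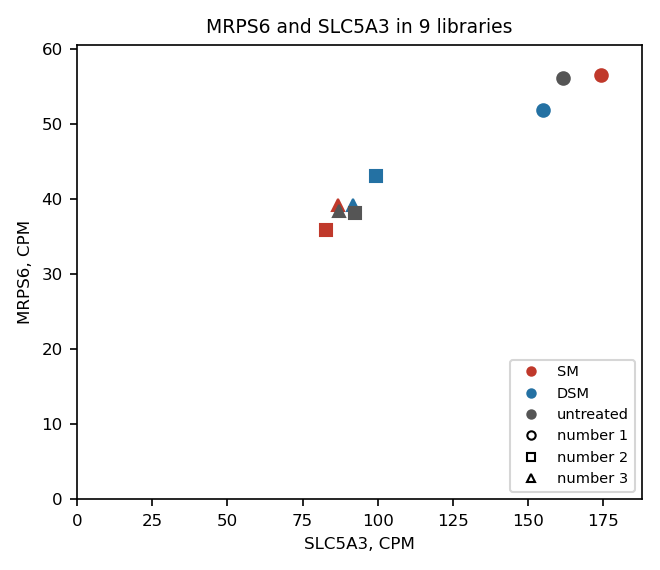
CPM of MRPS6 against CPM of SLC5A3, which shares exon bases with it on the same strand, in the 9 libraries, both axes starting at 0. The 3 libraries numbered 1, at 51.9 to 56.6 CPM of MRPS6 and 155.2 to 174.5 CPM of SLC5A3, lie apart from the other 6, and colours of the groups mix in both clusters.

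MRPS12 starts head to head with SARS2, the mitochondrial seryl-tRNA synthetase gene. In GENCODE v29, 349 exon bases of MRPS12, 21.5%, lie on SARS2 exons of the other strand. In RefSeq, the 180 bases before the MRPS12 start lie outside SARS2. SARS2 had 50.2, 58.0 and 53.7 CPM in SM cells, 51.6, 51.7 and 54.9 CPM in DSM cells and 51.6, 54.9 and 56.3 CPM in untreated cells. Its log2 fold change was -0.0092 for SM (SE 0.063) and -0.042 for DSM (SE 0.063) against untreated cells, and it was called in no comparison with or without the block. In all, 13 members have a head-to-head gene, taken here as one on the other strand that starts within 1000 bases. In some of these pairs, MRPS12 and SARS2 among them, the genes overlap at their starts. For 10 of the 13 the neighbour was tested. None of these neighbours was called between groups, with or without the block. The one of MRPS11 is MRPL46, a large subunit protein gene whose start lies 34 bases away, at 34.3, 36.6 and 33.9 CPM in SM cells, 35.5, 34.4 and 33.5 CPM in DSM cells and 33.5, 35.3 and 35.5 CPM in untreated cells.

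Other genes of the pathway were read from lists. Among 11 genes for modification of the 12S rRNA and assembly of the small subunit, 0 were called as higher and 0 as lower in any of the 3 comparisons in either fit, and likewise among 13 mitochondrial translation factors. NOA1, a GTPase of small subunit assembly, came closest. It had 44.0, 52.3 and 46.8 CPM in SM cells, 42.0, 44.4 and 42.6 CPM in DSM cells and 44.0, 47.9 and 45.0 CPM in untreated cells, with a blocked log2 fold change of 0.14 for SM against DSM (SE 0.042, edgeR adjusted p = 0.0553). DHX30, an RNA helicase of mitochondrial ribosome assembly, had 0.087 there (SE 0.034, edgeR adjusted p = 0.186) and TSFM, an elongation factor, 0.11 (SE 0.047, edgeR adjusted p = 0.209). TFB1M, a methyltransferase of the 12S rRNA, had a blocked log2 fold change of -0.11 for SM against untreated cells (SE 0.051, edgeR adjusted p = 0.318). For GUF1, an elongation factor, it was 0.093 (SE 0.04, edgeR adjusted p = 0.264). Of the 50 genes of the large subunit and the 32 of the cytosolic small subunit, 0 were called in any comparison in either fit. By replicate number 4 of the 11 assembly genes, 6 of the 13 translation factors and 17 of the 50 large subunit genes (34%) were called, beside 9 of the 33 members and 3 of the 32 cytosolic small subunit genes (9.38%).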

How the data were processed

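mRNA-seq libraries of 9 SW620 cultures were analysed, 3 per group. Per the labels' protocols, the RNA was a TRIzol extract and the kit Universal Plus mRNA-seq. The submitters' processing notes name the build hg38, TopHat2 2.1.1 and featureCounts 2.0.0. How strand and multi-mapping reads were treated, and which annotation was used, is not given in the sources used here. Overlapping and near-identical genes are therefore uncertain.

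The deposited values used are raw counts, whole numbers of reads per gene that the authors left without normalization. The table normalized by the authors was not used. All 28307 rows entered the library totals given above, 408 of them without a gene ID. With edgeR 4.0.16 in R 4.3.3, filterByExpr by group (minimum count 10, minimum total 15) kept 15619 genes. Library sizes were then taken over the kept genes, and libraries were scaled by TMM (factors 0.981 to 1.02). CPM uses these scaled library sizes. All 9 libraries entered 1 robust quasi-likelihood fit with group as its term. Tests were two-sided, adjusted by Benjamini-Hochberg over all tested genes and called under 0.05. The replicate numbers are given by the labels, and over all tested genes they paired the libraries. Deviations from the group means correlated there at 0.227 to 0.582 in all 9 same-numbered pairs of libraries, against -0.404 to 0.161 for different numbers. Among the members the ranges overlapped, at 0.049 (SM 2 with DSM 2) to 0.855 for same numbers and -0.818 to 0.66 (SM 2 with DSM 3) for different numbers. Within groups, no libraries agreed within sampling noise (chi-square over degrees of freedom 6.50 to 34.0). P-values cover the spread between these libraries of 1 cell line.

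The members and the gene lists were chosen with earlier results of these data known. Dropping symbols that end in P and digits was applied to MRPS symbols only, since it would also drop DAP3 and AURKAIP1, which the rule adds by name. Named are MRPS12 and MRPS5, members called in a comparison or by replicate number (up to 6 per direction) or else the 3 with the smallest p, the 3 highest and 3 lowest levels per length, the S18 paralogs, members placed elsewhere, head-to-head genes, and from each list up to 3 called genes or the 2 with the smallest p. Genes that share exon bases, MRPS members named for groups that do not overlap or for a small blocked p, and TSFM were chosen after their values were seen. Exons and start codons are from GENCODE v29, promoter sequences from RefSeq (GRCh38.p14). Motif letters were a 10-base NRF1 core with 1 free base and the 10-base antioxidant element with 3 free bases, beside those spelled out. Alternatives were DESeq2 size factors, no filter, DESeq2 1.42.0, only the 2 groups compared, each library left out in turn and the replicate block. Blocked DESeq2, blocked fits with a library left out and fits without the libraries numbered 1 were added after the data were seen. The test was tried on simulated counts without a replicate effect and with larger changes than those of the members. That trial cannot bear on the blocked call of MRPS35.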

Additional observations from a re-analysis of the deposited data

Results flagged for a closer look

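MRPS35, a mitochondria-specific protein of the small subunit, differed between the 2 compounds set against the same untreated cells. Its log2 fold change for SM against DSM was 0.126 with the replicate block (edgeR adjusted p = 0.0232), in a test of the difference itself. That fit called 1 of the 33 members, beside 606 of all tested genes (3.88%). Over all genes, SM libraries lay above DSM libraries without overlap in 3.41%. The 3 SM libraries of MRPS35 lay above and its 3 DSM libraries below all 3 untreated libraries. Over all genes, SM libraries lay above untreated ones in 3.28%, and DSM libraries lay below untreated ones in 2.22%. The share of genes with both was not computed. In that blocked comparison 3 of 9 tested colon epithelial markers (CDH1, KRT19 and VIL1) and 1 of 3 fibroblast markers (LUM, adjusted p = 0.00877) were lower with SM, and their part in the difference was not tested. The call of MRPS35 needed the block and was lost when any 1 of the SM and DSM libraries other than SM replicate 2 was left out.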

How the results depend on the processing

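In SM against untreated cells the count of called genes was 3 and became 5 with no filter, 14 by DESeq2, 0 in a fit of only the 2 groups, 428 with the replicate block and 0 to 3 with 1 library left out, where it held at 3 without SM replicate 1. The MRPS12 log2 fold change of 0.00051 became -0.0015 with no filter, -0.0005017 with the replicate block and -0.043 to 0.045 with 1 library left out, never called; it was negative without SM replicate 2 or untreated replicate 1. In SM against DSM the called genes, 0, became 3 with no filter, 11 by DESeq2 and 606 with the replicate block, which took called members to 1. That blocked count of members was 0 to 1 with 1 library left out and 0 without the libraries numbered 1. The blocked log2 fold change of MRPS35, 0.126, was 0.125 with no replicate block, 0.131 without the libraries numbered 1 (the call was lost in both) and 0.106 to 0.141 with 1 library left out (0.124 without SM replicate 1, 0.111 without SM replicate 3, 0.134 without DSM replicate 1, 0.137 without DSM replicate 2). DESeq2 with the block called MRPS35 too. The 9 members that differed by replicate number became 0 without the libraries numbered 1 and 7 to 13 with 1 library left out; the cause of these shifts was not tested. Among the other genes read here, the block also made calls of markers, 2 colon epithelial (KRT19 and VIL1) and 1 fibroblast (LUM) as lower in SM against untreated cells, and 3 (CDH1, KRT19 and VIL1) and 1 (LUM) as lower in SM against DSM. It changed no other call of a member or of a listed gene. DSM against untreated cells gave 0 called genes and members under every alternative, and called members were 0 in SM against untreated cells throughout.

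With 3 libraries a group of 1 line, precision is limited to the intervals given. Overlapping exons limit single members, and mRNA level is the only readout. The treated groups share the untreated libraries.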
